A study of Homo sapiens with 2 samples.

Results

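The let-7 and miR-98 family was taken as every assay whose name, without species prefix and assay number, begins with let-7 or equals miR-98. This gave 8 of the 365 miRNA assays on the card: let-7a, let-7b, let-7c, let-7d, let-7e, let-7f, let-7g and miR-98. One RNA sample came from CL1-5 cells that overexpress ANGPTL1, an angiopoietin-like protein that cells secrete, and 1 from CL1-5 cells with the empty plasmid pcDNA3.1 (control cells). CL1-5 is an invasive subline of a human lung adenocarcinoma line, and both cell populations had stayed under the antibiotic G418 for 4 weeks. The sources used here do not say whether either was 1 clone or a pool. miRNAs were measured by real-time PCR on a TaqMan Low Density Array, which gives for each assay a threshold cycle (Ct), the PCR cycle at which fluorescence passes a set level. If each cycle doubles the product, 1 cycle less means 2 times the template. With 1 sample per group no difference carries an error or a p-value, and every statement below compares these 2 RNA samples.

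let-7 miRNAs are short RNAs that bind partly complementary sites in messenger RNAs, chiefly through the seed, bases 2 to 8 from the 5′ end, and so lower the output of genes such as RAS family members, HMGA2 and LIN28. They are low in embryonic cells, rise with differentiation, and are known as growth-restraining miRNAs that are often scarce in lung cancers. The LIN28 proteins hold back their maturation by binding let-7 precursors. None of these proteins was measured on the card.

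The reference RNA RNU48, a small nucleolar RNA, crossed threshold at cycle 21.21 in ANGPTL1 cells and 20.79 in control cells, a gap of 0.42 cycles that enters every ratio relative to RNU48. An assay counted as detected below cycle 35, which left 158 miRNA assays in ANGPTL1 cells, 157 in control cells and 145 in both. Epithelial marker miRNAs were only partly present, with 2 of 7 names, miR-200c and miR-203, detected in each sample. Of blood cell markers 0 of 4 on the card were detected in ANGPTL1 cells and 1 of 4 in control cells. Of muscle markers 1 of 4 was detected in each sample, and of 1 liver and 2 neuronal markers none in either.

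The 8 mature sequences show how little the assays have to tell apart. They are given 5′ to 3′ from RefSeq (GRCh38.p14), where all 8 names were matched to the 5p product, the assay names giving no arm, and capitals mark the seed:
let-7a: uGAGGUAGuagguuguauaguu
let-7b: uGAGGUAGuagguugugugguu
let-7c: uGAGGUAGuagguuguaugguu
let-7d: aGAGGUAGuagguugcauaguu
let-7e: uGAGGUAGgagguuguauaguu
let-7f: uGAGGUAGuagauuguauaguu
let-7g: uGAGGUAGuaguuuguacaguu
miR-98: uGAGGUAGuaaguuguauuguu

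All 8 are 22 bases long and share 1 seed, which makes miR-98 a let-7 miRNA by its seed. Counting positions from 1 at the 5′ end and giving the let-7a base first, let-7c differs from let-7a by A19G, let-7e by U9G and let-7f by G12A. A pair of changes separates the other members from let-7a. These are A17G and A19G for let-7b, U1A and U16C for let-7d, G12U and U18C for let-7g, and G11A and A19U for miR-98. Among the 28 pairs of members, 4 differ by 1 base, 9 by 2, 10 by 3 and 5 by 4. Of all mature miRNAs in the RefSeq table, 11 have this seed, and the 3 that are not members (let-7i, miR-4458 and miR-4500) matched no assay name in the tables, so let-7i is not analysed here.

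**Figure D1:**
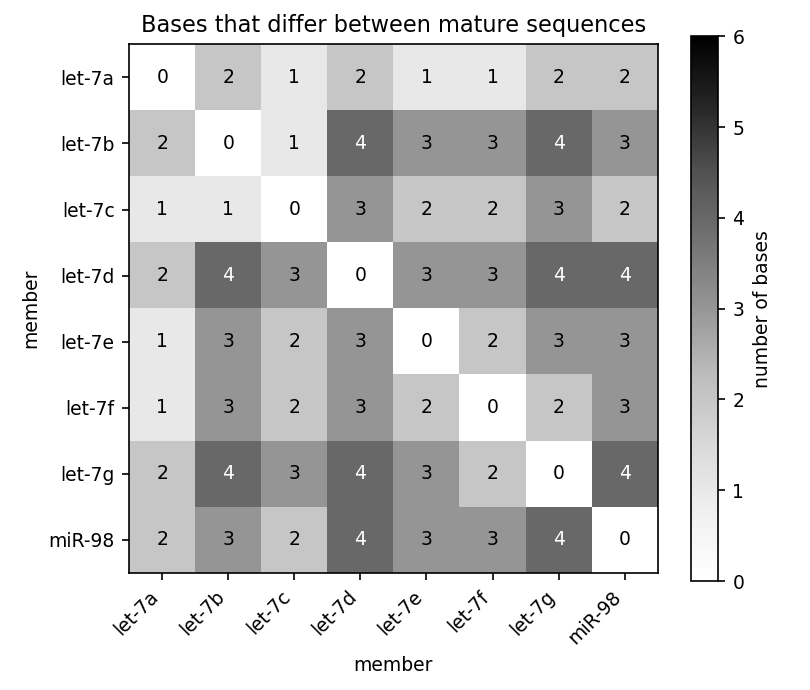
Number of bases that differ between the mature sequences of each pair of members, with members on both axes and the count in each cell and as grey level. The count runs from 1 to 4 between different members, and let-7a lies within 2 bases of every other member.

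In the RefSeq annotation of GRCh38.p14, 11 hairpin genes on 7 chromosomes encode the family, and 6 members have 1 gene each. let-7a can come from 3 genes. MIRLET7A1 lies at chr9:94175957-94176036 on the plus strand within the long noncoding RNA gene MIRLET7A1HG, MIRLET7A2 at chr11:122146522-122146593 on the minus strand within MIR100HG, and MIRLET7A3 at chr22:46112749-46112822 on the plus strand within MIRLET7BHG. let-7f can come from 2 genes, MIRLET7F1 at chr9:94176347-94176433 beside MIRLET7A1, and MIRLET7F2 at chrX:53557192-53557274 on the minus strand, within the span of the ubiquitin ligase gene HUWE1. Since the mature product is the same, the card cannot tell which copy a let-7a or let-7f signal came from.

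The 6 single-copy members lie on 6 chromosomes. MIRLET7D (chr9:94178834-94178920, plus strand) stands 2488 bases after MIRLET7F1, so let-7a, let-7f and let-7d have a common neighbourhood on chromosome 9. MIRLET7B (chr22:46113686-46113768, plus strand) stands 939 bases after MIRLET7A3, and MIR98 (chrX:53556223-53556341, minus strand) 947 bases after MIRLET7F2. MIRLET7C (chr21:16539828-16539911, plus strand) lies within MIR99AHG, MIRLET7E (chr19:51692786-51692864, plus strand) within the spans of SPACA6 and SPACA6-AS1, and MIRLET7G (chr3:52268278-52268361, minus strand) within that of WDR82. Distances run between the first annotated bases of the mature 5p products.

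All 8 members were detected in both samples, and their order by cycle was the same in each. From early to late it ran let-7g, let-7a, let-7b, let-7f, let-7d, miR-98, let-7e, let-7c. let-7g crossed threshold at cycle 27.39 in ANGPTL1 cells and 26.87 in control cells, and 46 of the 145 detected miRNAs were earlier in each sample. let-7c, the last, crossed at cycle 34.08 in ANGPTL1 cells and 34.79 in control cells, just inside the detection limit. The family spanned 6.69 cycles in ANGPTL1 cells and 7.92 in control cells, or 103-fold and 242-fold if all assays amplify alike. No source used here gives the assays' efficiencies, so an order by cycle need not be an order by copies.

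Neighbours in that order were often close. let-7a crossed threshold 0.18 cycles before let-7b in ANGPTL1 cells and 1.81 cycles before it in control cells. The other gaps between neighbours ran from 0.54 to 1.99 cycles in ANGPTL1 cells and from 0.46 to 2.59 in control cells. Without replicates no spread exists against which these gaps could be judged. The median cycle of all detected miRNAs was 29.20 in ANGPTL1 cells and 29.25 in control cells. By that measure 5 members were late in ANGPTL1 cells and 6 in control cells, the change of side being that of let-7b.

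**Figure D2:**
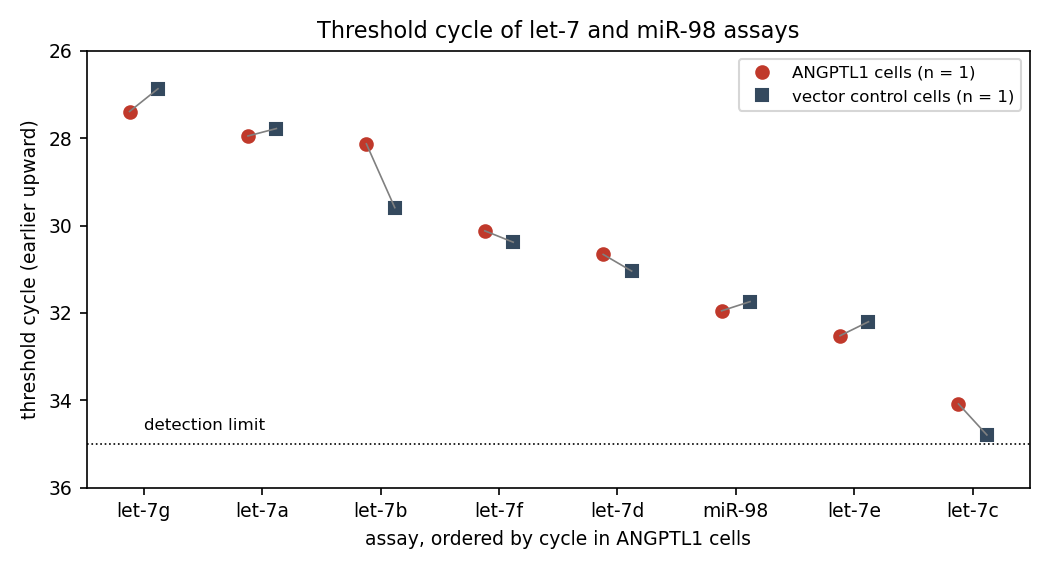
Threshold cycle of each member (vertical axis, in cycles, with earlier cycles upward) in ANGPTL1 cells (circles) and vector control cells (squares), 1 sample each, with a grey line joining the samples and a dotted line at the detection limit of cycle 35. The order from let-7g to let-7c is the same in both samples, and the longest line is that of let-7b, at 28.13 in ANGPTL1 cells and 29.59 in control cells.

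The comparison asked which family members differ with ANGPTL1 overexpression. Relative to RNU48, let-7b and let-7c were higher in ANGPTL1 cells by 2-fold or more, let-7d and let-7f were higher by a smaller margin, and let-7a, let-7e, let-7g and miR-98 lay within 0.25 log2 units of no difference. The 2 members past 2-fold on the higher side stand against 7.59% of the 145 detected miRNAs. None of the 8 was 2-fold lower, against 4.83% of the detected miRNAs. At a 1.5-fold size, 4 members were higher, against 16.6%.

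let-7b had a delta Ct, the cycle minus that of RNU48, of 6.92 in ANGPTL1 cells and 8.80 in control cells, a log2 ratio of 1.88 or 3.68-fold. Only 4 of the 145 detected miRNAs had a larger ratio. It was also the member with the largest difference in the cycles themselves, 1.46 cycles earlier in ANGPTL1 cells. For let-7b the same 3.68-fold stands in the authors' deposited table.

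let-7c had a delta Ct of 12.87 in ANGPTL1 cells and 14 in control cells, a log2 ratio of 1.13 or 2.19-fold, with 6 miRNAs above it. Its cycles differed by 0.71, and both lay past cycle 34, where few template copies enter the reaction. Without RNU48 its log2 ratio was 0.71, short of 2-fold.

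let-7d, the member whose 5′ end starts with A, had a delta Ct of 9.45 in ANGPTL1 cells and 10.25 in control cells, a log2 ratio of 0.80. let-7f had a delta Ct of 8.91 in ANGPTL1 cells and 9.59 in control cells, a log2 ratio of 0.68. Both were also earlier by cycle in ANGPTL1 cells, let-7d at 30.66 against 31.04 in control cells, and let-7f at 30.12 against 30.38 in control cells.

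let-7a, the member with the most gene copies, had a delta Ct of 6.74 in ANGPTL1 cells and 6.99 in control cells, a log2 ratio of 0.25. miR-98 stood at 10.74 in ANGPTL1 cells and 10.95 in control cells, a log2 ratio of 0.21. let-7e stood at 11.31 in ANGPTL1 cells and 11.41 in control cells, a log2 ratio of 0.10. The sign of these 3 ratios depends on the reference. With the mean cycle of the detected miRNAs in place of RNU48 they were 0.24, 0.20 and 0.085, with their median cycle -0.22, -0.26 and -0.37. By cycle alone all 3 were later in ANGPTL1 cells. let-7a crossed at 27.95 in ANGPTL1 cells and 27.78 in control cells, miR-98 at 31.95 in ANGPTL1 cells and 31.74 in control cells, and let-7e at 32.52 in ANGPTL1 cells and 32.20 in control cells. let-7g was the only member on the lower side with RNU48 as reference, with a delta Ct of 6.17 in ANGPTL1 cells and 6.08 in control cells and a log2 ratio of -0.09, or -0.52 by cycle alone.

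Over the 8 members the median log2 ratio was 0.465 and the mean 0.62, beside a median of -0.01 over all 145 detected miRNAs. Relative to RNU48 7 members lay above 0, where 49.7% of the detected miRNAs did. Without a reference RNA every ratio is lower by 0.42, as the RNU48 cycles differ by that much. Then 4 members, let-7b, let-7c, let-7d and let-7f, lay above 0, against 20.7% of the detected miRNAs, and the family median was 0.045 beside -0.43 over all detected miRNAs. Only let-7b was then past 2-fold, against 4.14%. With the median cycle of the detected miRNAs as reference the family median was -0.005, and with their mean cycle it was 0.45. With the median cycle 4 members lay above 0, against 19.3% of the detected miRNAs. A change of reference shifts every ratio by the same amount. The distance of the family median from the median of all detected miRNAs therefore stays the same.

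**Figure D3:**
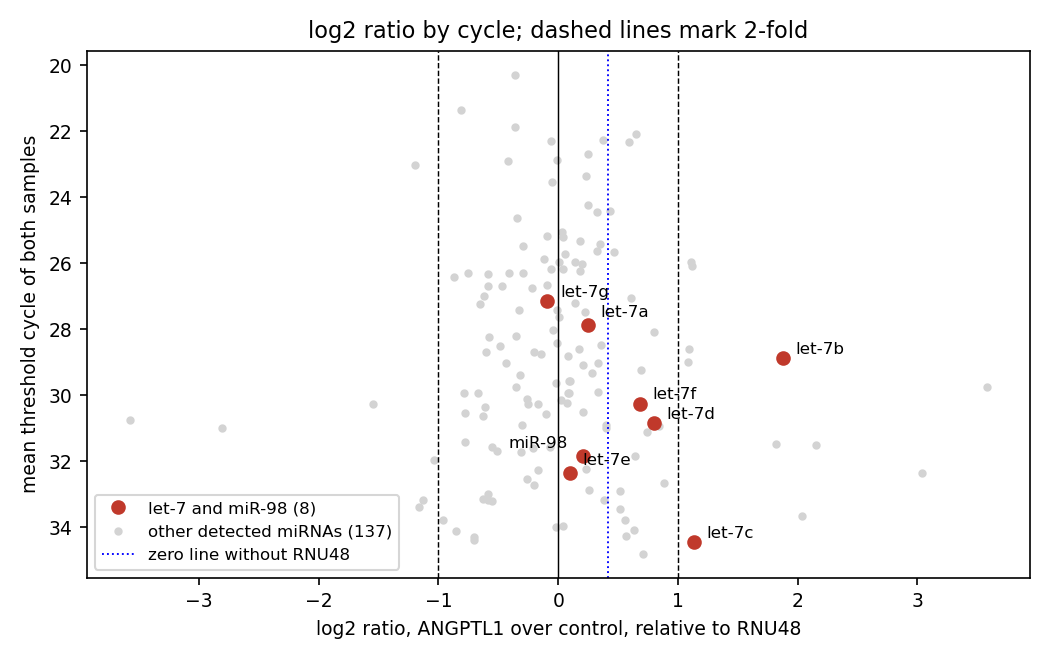
log2 ratio of ANGPTL1 cells over control cells relative to RNU48 (horizontal axis) against the mean cycle of both samples (vertical axis, earlier upward) for the 8 members (red) and the 137 other miRNAs detected in both samples (grey). Dashed lines mark 2-fold and the dotted blue line shows where 0 would lie without RNU48. let-7b at 1.88 and let-7c at 1.13 lie beyond the right dashed line, let-7d and let-7f lie right of the blue line, and the other 4 lie left of it.

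The make-up of the family differed mainly in let-7b and let-7g. Levels were computed as 2 to the power of minus delta Ct, in parts per 1000 of RNU48, and added over the 8 assays as if all amplified alike. let-7b held 22.9% of the sum in ANGPTL1 cells and 8.03% in control cells. let-7g held 38.4% in ANGPTL1 cells and 52.9% in control cells, and let-7a 25.9% in ANGPTL1 cells and 28.2% in control cells. These shares do not depend on RNU48, but each depends on the levels of the other members. The let-7g level itself was 13.9 parts per 1000 of RNU48 in ANGPTL1 cells and 14.8 in control cells. let-7g, let-7a and let-7b together made up 87.2% of the sum in ANGPTL1 cells and 89.1% in control cells. The other 5 members thus contributed little, with let-7c at 0.370% in ANGPTL1 cells and 0.218% in control cells.

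The sum itself was 36.1 parts per 1000 of RNU48 in ANGPTL1 cells and 27.9 in control cells, 1.29-fold higher in ANGPTL1 cells. let-7b accounted for most of this net difference, 6.01 of 8.18 parts or 73.6%, and let-7a for 1.49 parts. let-7g went the other way, by -0.894 parts. Without let-7b the sum was 1.08-fold higher. The direction of the sum depends on the reference. Its log2 ratio was 0.37 with RNU48 and 0.35 with the mean cycle of the detected miRNAs as reference, but -0.10 with their median cycle. With no reference it was -0.054, or 1.04-fold lower in ANGPTL1 cells.

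**Figure D4:**
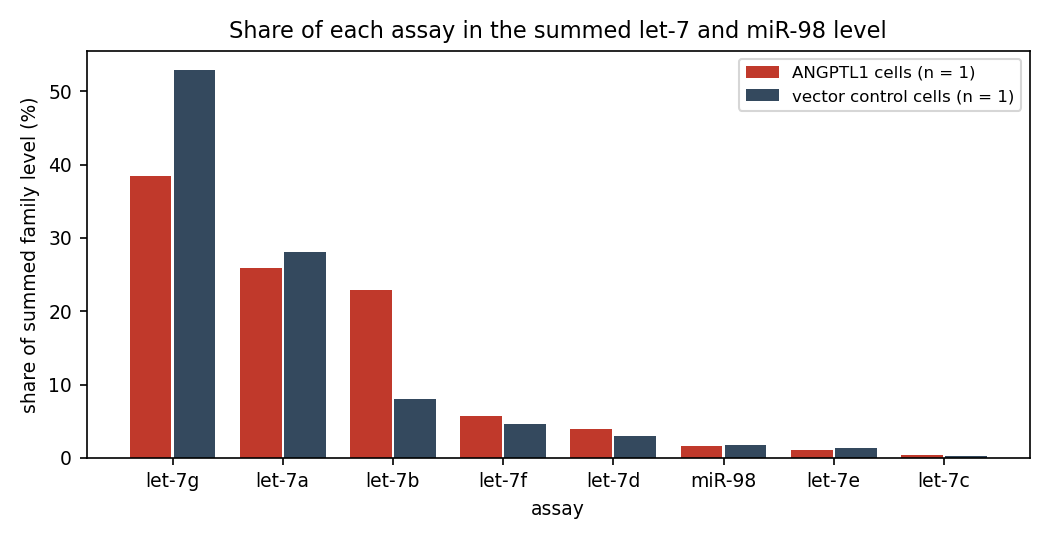
Share of each member in the summed family level (vertical axis, percent) in ANGPTL1 cells (red) and vector control cells (dark blue), 1 sample each, under the assumption that all assays amplify alike. The let-7b bar stands at 22.9% in ANGPTL1 cells and 8.03% in control cells, and the let-7g bar at 38.4% in ANGPTL1 cells and 52.9% in control cells.

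Members from 1 neighbourhood did not all have like ratios. On chromosome 22, let-7b had a log2 ratio of 1.88, while let-7a, which MIRLET7A3 can supply along with the other 2 copies, had 0.25. On chromosome 9 the products let-7a, let-7f and let-7d had 0.25, 0.68 and 0.80. On chromosome X, let-7f had 0.68 and miR-98 0.21. As let-7a and let-7f are each read from several genes, these values do not give the ratio of any single copy.

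The hairpins were searched for GGAG between the end of the 5p product and the start of the 3p product, on the RNA strand, because LIN28 is known to bind this motif in let-7 precursors. It was found in 8 of the 11 family hairpins, against 8.12% of the 739 hairpins in the RefSeq table with both arms annotated. For MIRLET7F2, whose 3p product is not in the table used, the search ran to the end of the hairpin. The 3 without it were MIRLET7A3, MIRLET7B and MIR98. The following hairpins are shown because they carry the member with the largest ratio, its neighbour, the member next in ratio and the earliest member, and capitals mark GGAG in that window:
MIRLET7B: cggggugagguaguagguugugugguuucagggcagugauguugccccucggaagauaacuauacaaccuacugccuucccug
MIRLET7A3: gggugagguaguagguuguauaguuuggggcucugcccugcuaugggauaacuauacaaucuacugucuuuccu
MIRLET7C: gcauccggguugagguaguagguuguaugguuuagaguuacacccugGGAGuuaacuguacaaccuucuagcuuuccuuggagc
MIRLET7G: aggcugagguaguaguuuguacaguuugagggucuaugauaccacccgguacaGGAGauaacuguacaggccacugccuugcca

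Among the single-copy members, let-7b (1.88) and miR-98 (0.21) lack GGAG in that window, and let-7c (1.13), let-7d (0.80), let-7e (0.10) and let-7g (-0.09) have it, so the ratios of the 2 sets overlap. A match in these letters is not evidence of binding, and LIN28 was not measured.

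let-7 genes on chromosomes 21, 19 and 11 stand among genes of the miR-99, miR-100 and miR-125 families, and in each of these regions the let-7 product was the latest of the 3, by at least 3.37 cycles in either sample. MIR99A lies 737 bases before MIRLET7C on the same strand. let-7c crossed threshold 11.84 cycles after miR-99a in ANGPTL1 cells and 12.38 cycles after it in control cells. let-7e followed miR-99b, 175 bases away, by 4.96 cycles in ANGPTL1 cells and 4.84 in control cells, and miR-125a, 475 bases away, by 6.86 cycles in ANGPTL1 cells and 6.64 in control cells. On chromosome 11, let-7a followed miR-100, encoded 5707 bases from MIRLET7A2, by 5.98 cycles in ANGPTL1 cells and 5.58 in control cells. However, let-7a can also come from the other 2 genes. miR-125b has a copy 50415 bases from MIRLET7C and another 46759 bases from MIRLET7A2. It was 9.68 cycles earlier than let-7c in ANGPTL1 cells and 10.38 in control cells. These gaps compare different assays, and neither a difference in assay efficiency nor cross-reading among the neighbour assays was tested.

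The ratios of these 5 neighbours were modest and of 1 sign relative to RNU48. All 5 lay above 0, between 0.22 (miR-99b) and 0.65 (miR-100), with a median of 0.43, where 49.7% of the detected miRNAs lay above 0. None was 2-fold higher, against 7.59%, or 2-fold lower, against 4.83%. miR-99a, beside let-7c, was at 0.59, where let-7c was at 1.13. miR-99b and miR-125a, beside let-7e, were at 0.22 and 0.32, where let-7e was at 0.10. In the chromosome 11 region miR-100 and miR-125b were at 0.65 and 0.43, where let-7a was at 0.25. miR-125b also has a copy in the chromosome 21 region. Without a reference 3 of the 5 lay above 0, against 20.7%, and their median was 0.01. With the median cycle of the detected miRNAs as reference it was -0.04.

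**Figure D5:**
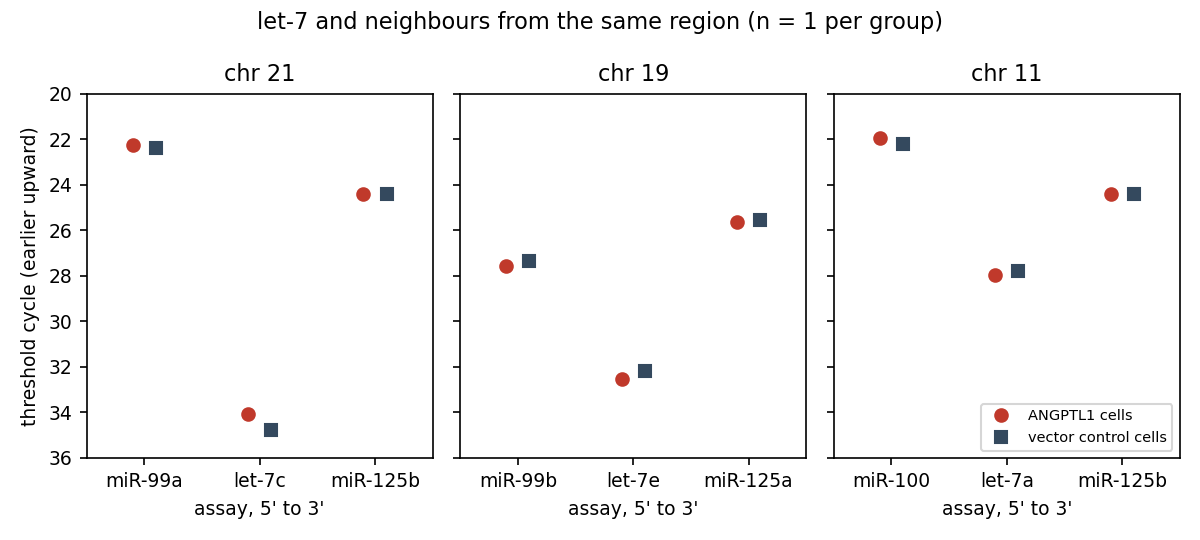
Threshold cycle (vertical axis, in cycles, earlier upward) of the let-7 product and its neighbours in 3 regions, ordered 5′ to 3′, in ANGPTL1 cells (circles) and vector control cells (squares), 1 sample each. In every panel the let-7 assay is the latest, and the widest gap is that of let-7c, at 34.08 in ANGPTL1 cells and 34.79 in control cells, to miR-99a, at 22.24 in ANGPTL1 cells and 22.41 in control cells.

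Whether an assay of the card also reads a close relative was not tested, but under the assumptions below the cycles set a ceiling on it. If all of an assay's signal came from another member, that signal as a percentage of the other's would be the largest cross-reading possible. This assumes equal efficiency and that the other assay reads only its own member. If part of the other's signal were itself cross-read, the rate could be higher. For let-7c against let-7a, which differ by A19G, it was 1.43% in ANGPTL1 cells and 0.776% in control cells. For let-7c against let-7b, which differ at position 17, it was 1.62% in ANGPTL1 cells and 2.72% in control cells. If let-7c read both at 1 rate, that rate could not, under these assumptions, pass 0.758% in ANGPTL1 cells and 0.604% in control cells. These ceilings are low because let-7c was so late, and for the same reason a small rate would be enough to supply its whole signal in a sample. Under the same assumptions, the rate needed differed between the samples, and a rate common to both could not pass the lower of each pair. The let-7c level was higher by 0.0725 parts per 1000 of RNU48 in ANGPTL1 cells. That is 1.21% of the let-7b difference and 4.87% of the let-7a difference.

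The ceilings were wider for the other members 1 base from let-7a. For let-7e (U9G) the signal was 4.21% of that of let-7a in ANGPTL1 cells and 4.67% in control cells. For let-7f (G12A) it was 22.2% in ANGPTL1 cells and 16.5% in control cells. let-7a, let-7d, let-7e and let-7f end in the same last 6 bases, a window chosen here because reverse transcription primers of this assay type anneal at the 3′ end. let-7b, let-7c, let-7g and miR-98 each end in another sequence. The let-7b signal was 88.3% of that of let-7a in ANGPTL1 cells and 28.5% in control cells, with 2 bases between them.

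Pairs of members were also set side by side by sequence and by ratio. The 4 pairs that differ by 1 base had log2 ratios 0.15 to 0.88 apart, with a median of 0.59. The 9 pairs at 2 bases were 0.04 to 1.63 apart with a median of 0.58, the 10 pairs at 3 bases 0.11 to 1.78 apart with a median of 0.585, and the 5 pairs at 4 bases 0.30 to 1.97 apart with a median of 0.89. The pairs share members and are a description only.

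The miRNAs outside the family with the most similar pair of delta Ct values were found by straight-line distance over the 2 samples. For let-7b the nearest was miR-7, at a distance of 0.599 cycles, with a delta Ct of 7.46 in ANGPTL1 cells and 8.54 in control cells. The nearest to let-7d was miR-146b at 0.117 cycles, to let-7g miR-365 at 0.194, to let-7e miR-642 at 0.212, to let-7a miR-192 at 0.300, and to miR-98 miR-224 at 0.305. The nearest to let-7f was miR-328 at 0.434 cycles and to let-7c miR-576 at 0.471. The family's median delta Ct was 9.18 in ANGPTL1 cells and 9.92 in control cells, and the closest to it were miR-194 (0.383), miR-146b (0.542) and miR-23b (0.563). let-7b was thus the member with the least close neighbour outside the family.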

How the data were processed

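The labels' protocols give 500 ng of total RNA, multiplexed reverse transcription and 40 PCR cycles on Human MicroRNA Panel version 1.0. The authors deposited 3 tables, with average threshold cycles, delta Ct relative to RNU48, and the fold change as a ratio of ANGPTL1 over control, per the file headers. No source used here states the wells averaged, the threshold setting or the software. The delta Ct values differed from the cycles' difference by at most 0.01. A further 2 per-sample columns of linear levels were not used. The log2 ratio was delta Ct in control minus delta Ct in ANGPTL1 cells, computed with pandas 2.3.3 in Python 3.11.15 and tested on simulated data. Groups follow the treatment labels. With 1 sample per group there was no test. Named were all members, their genomic neighbours, seed mates and the nearest non-members by delta Ct. The members and lists were chosen with earlier results of these data known. Alternatives were the reference, ratio source, amplification per cycle, detection limit, fold threshold and leaving out single members.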

Additional observations from a re-analysis of the deposited data

How the results depend on the processing

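With RNU48 recomputed from the cycles, the authors' deposited fold change or a detection limit of 38, which repeat the ratios by construction, all 8 members' log2 ratios stayed within 0.01 and the counts were the same. With the median cycle of detected miRNAs as reference, the family median reversed to -0.005, the sum to -0.10 and the neighbours' median to -0.04. With it 4 members lay above 0, against 19.3% of the detected miRNAs. Past 2-fold higher was 1 member, and the share of all detected miRNAs past 2-fold was not computed for that reference. The median cycles are 29.20 in ANGPTL1 cells and 29.25 in control cells. A further pair of references was chosen after seeing the data. Of these, the median of the per-miRNA differences gave ratios within 0.01 of those with RNU48. The mean cycle of detected miRNAs gave medians of 0.45 for the family and 0.42 for the neighbours, and 0.35 for the sum. The counts were the same, with 7 members above 0 against 48.3% of the detected miRNAs. The share of all detected miRNAs past 2-fold was not computed for the mean cycle. Without a reference the family median was 0.045, the summed level reversed to a log2 ratio of -0.054, and the neighbours' median was 0.01. Then 1 member was past 2-fold higher, against 4.14% of the detected miRNAs, and 4 lay above 0, against 20.7%. All ratios are then lower by 0.42. With 1.9-fold amplification per cycle the medians were 0.43 for the family and 0.40 for the neighbours. A detection limit of 32, which leaves out let-7c and let-7e, gave 1 member past 2-fold. A 1.5-fold threshold gave 4 members, against 16.6% of the detected miRNAs, and a 4-fold threshold 0. The share of all detected miRNAs was not computed for the limit of 32 or the 4-fold threshold. Leaving out single members gave family medians from 0.25 to 0.68 and log2 ratios of the sum from 0.12 (without let-7b) to 0.76 (without let-7g). It left 6 to 7 members above 0, where 49.7% of all detected miRNAs lay relative to RNU48. No paired analysis was possible because there was a single sample in each group. The reading of let-7c rests on cycles past 34.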

Other observations

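Other miRNAs on the card that resemble the let-7 seed were looked up. The seed of miR-196a and miR-196b, AGGUAGU, is the let-7 seed GAGGUAG moved by 1 base, and that of miR-202-3p, GAGGUAU, differs in its last base. miR-196a, encoded in the HOX gene clusters, crossed threshold at cycle 28.64 in ANGPTL1 cells and 28.21 in control cells, and its log2 ratio was -0.01 with RNU48 as reference. miR-196b crossed at 30.12 in ANGPTL1 cells and 29.35 in control cells, a log2 ratio of -0.35. Both assays named miR-202 stood at 40, the last cycle, in both samples.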
